A study of Mus musculus with 12 samples.

Results

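The genes examined were 8 transcription factor genes of myeloid fate, Cebpa, Cebpb, Cebpd, Cebpe, Gfi1, Spi1, Runx1 and Myb. They were represented by every probe set that the array's annotation gives to exactly 1 gene symbol, where that symbol is in this set. There were 16 such probe sets among 28805 with a single symbol, and they covered 7 of the 8 genes. No probe set with the symbol Cebpe was among them, so Cebpe was not analysed here. Runx1 had 6 probe sets, Myb 3, Cebpb and Cebpd 2 each, and Cebpa, Gfi1 and Spi1 1 each.

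Each of the 4 groups had 3 mouse Affymetrix arrays, 12 in all. The starting material of every group was C57BL/6 marrow immortalised by HoxA9, a homeodomain protein that blocks myeloid maturation, so the controls carry it too. Transduced cells were then transplanted into irradiated mice. The IDH1mut group carried pSF91-IDH1mut-IRES-GFP, a vector for mutant isocitrate dehydrogenase 1, whose known product is the oncometabolite R-2HG. Cells of the R-2HG group carried the empty vector, and their hosts received daily R-2HG, 1 mg each time, over 4 weeks. The IDH1wt group carried the wild-type enzyme in pSF91-IDH1wt-IRES-EGFP, and the empty vector group carried the vector alone with no R-2HG. RNA was taken from GFP-positive cells sorted from recipient marrow after 4 weeks. One field of the R-2HG labels, the description, gives the IDH1mut vector. Since titles, source names, constructs and the stated design give the empty vector instead, these samples were taken as empty vector cells. The mutation carried by IDH1mut is not named in the labels. No label states whether the replicates are separate mice or separate transductions, so every p-value rests on the variation among these samples alone, and that variation may be technical.

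Myeloid cells are specified by a small network of transcription factors. C/EBP alpha (Cebpa), a leucine zipper protein, drives progenitors toward the granulocyte and monocyte lineages, and its relatives C/EBP beta, delta and epsilon act in stress-induced and terminal granulocyte formation. PU.1 (Spi1), an ETS family protein, is needed for all myeloid cells, with more of it favouring monocytes. GFI1, a zinc finger repressor, favours neutrophils over monocytes. RUNX1, the DNA-binding subunit of core binding factor, and MYB keep progenitors and activate early myeloid genes such as the primary granule genes, and MYB levels normally decline as cells mature.

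Values were log2 expression values centred for each probe set. A value of 0 thus stands near the middle array of that gene, differences of 1 are 2-fold, and no absolute level is known. For this reason levels were not compared between genes, and the sorted cells could not be checked for the absence of markers. One value per gene and array was used, the mean over its probe sets. A gene was called changed at an adjusted p under 0.05 in limma, a linear model fitted to all 15858 genes, and errors given with log2 fold changes are its standard errors (SE). In these RNA pools fewer cells of a type and less RNA per cell cannot be told apart.

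The R-2HG arrays were uneven. Replicates 1 and 2 were the closest pair of arrays of any group, with an SD of 0.178 for the difference between them over all probe sets, and replicate 3 lay at 0.350 and 0.362 from them. In the other groups the SD of such differences ran from 0.187 to 0.289. Replicates 1 and 2 of R-2HG also stood low for markers of mast cells, basophils and eosinophils, with a median over 10 measured genes of -2.72 and -2.82, against 0.05 to 0.12 in empty vector. R-2HG replicate 3 stood at 0.26. Results on the factor genes, and the counts or medians of gene lists, are therefore also given without replicates 1 and 2 where that changes a call or a count. A single R-2HG array then remains, and its spread is taken from the other groups. Fewer of all genes pass with that single array, so a smaller count there cannot be read as particular to a list.

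The number of changed factor genes differed between the comparisons. By the F test over the 4 groups, 6 of the 7 measured genes differed, Cebpb being the exception (adjusted p = 0.524), where the test called 54.6% of all genes. In IDH1mut against empty vector 4 of 7 were called, beside 22.6% of all genes. Of them, 1 was higher and 3 were lower, beside 10.5% and 12.1% of all genes. In R-2HG against empty vector 3 of 7 were called, all lower, beside 40.8% of all genes called, 16.5% higher and 24.3% lower, so that the share of factor genes called was close to the background. In IDH1wt against empty vector limma called 0 of 7, and 2 had an unadjusted p under 0.05, beside 1.35% of all genes called. In IDH1mut against IDH1wt 3 of 7 were called, 2 higher and 1 lower, beside 15.7% of all genes (8.37% higher, 7.29% lower). In IDH1mut against R-2HG the count was 4 of 7, 2 higher and 2 lower, beside 36% (20.3% higher, 15.8% lower). In R-2HG against IDH1wt it was 5 of 7, 2 higher and 3 lower, beside 44.4% (21.4% higher, 23% lower). Non-overlapping groups were found for 4, 4, 3, 4, 4 and 6 of the 7 genes in these comparisons in the order given, beside 41.1%, 53.5%, 23.8%, 32.7%, 47.9% and 53.4% of all genes. Comparisons that share a group are not independent of each other.

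**Figure D1:**
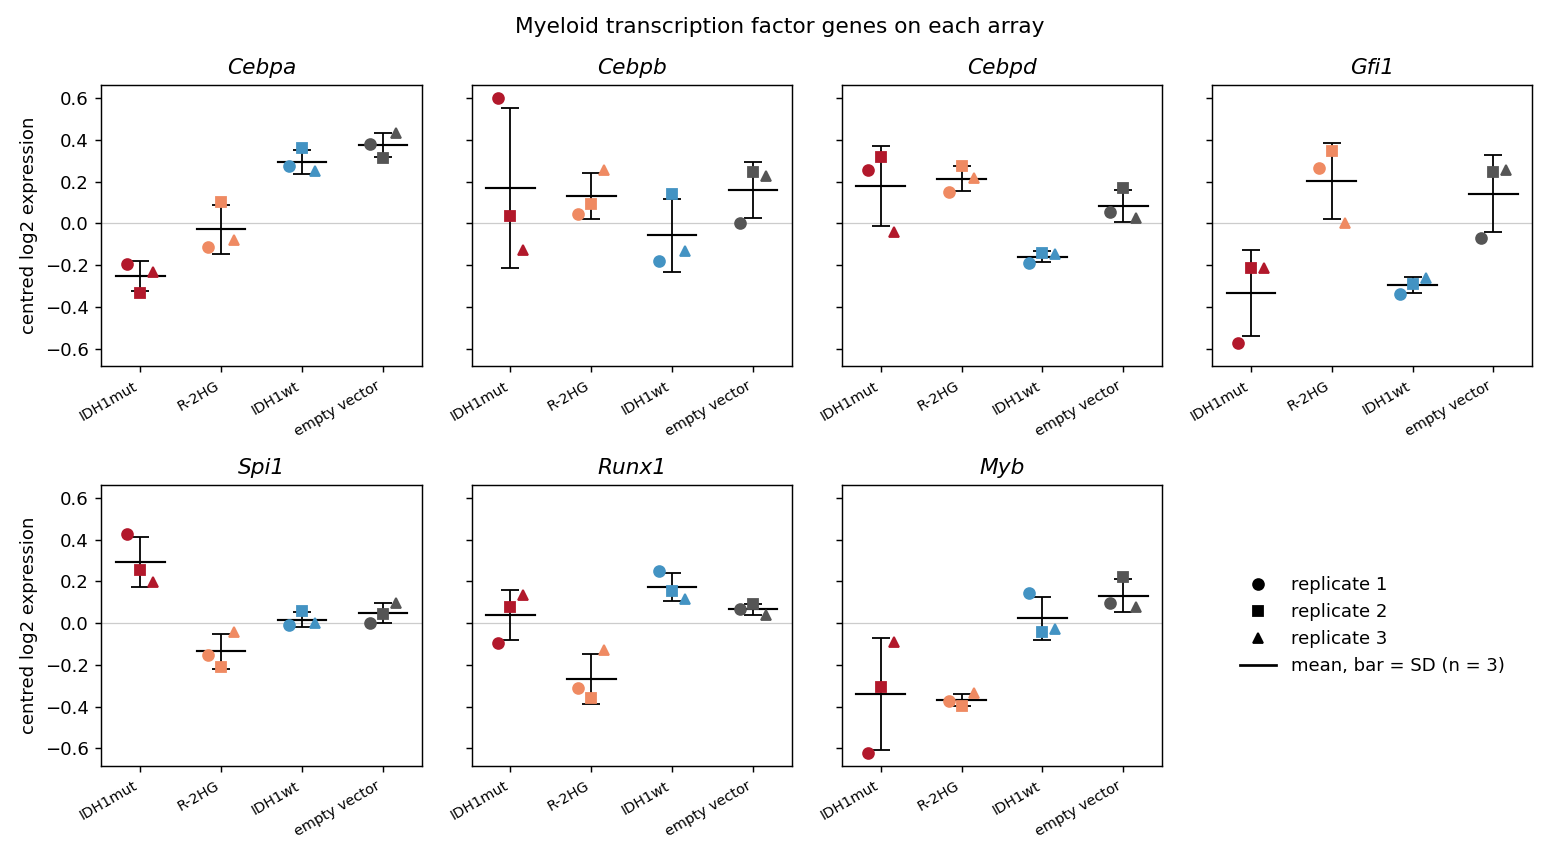
Centred log2 expression (y axis) of the 7 measured genes on each array, by group, with the mean and SD of 3 arrays. Cebpa is lowest in IDH1mut and intermediate in R-2HG, Gfi1 is low in IDH1mut and IDH1wt, Spi1 is highest in IDH1mut, and Runx1 is lowest in R-2HG.

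Cebpa, the gene of the factor that starts granulocyte and monocyte formation, fell with mutant IDH1 and with R-2HG. Its values were -0.19, -0.33 and -0.23 in the IDH1mut arrays, and 0.38, 0.31 and 0.43 in the empty vector arrays. The R-2HG arrays stood at -0.11, 0.11 and -0.08 and the IDH1wt arrays at 0.28, 0.36 and 0.25. All IDH1mut arrays thus lay below all R-2HG arrays, and these below all arrays of IDH1wt and empty vector, which overlapped each other. The log2 fold change was -0.63 ± 0.08 in IDH1mut against empty vector (SE, n = 3 per group, adjusted p = 0.000181), a level 0.647 times that of empty vector. It was -0.40 ± 0.08 in R-2HG against empty vector (adjusted p = 0.00167), or 0.755 times. Against IDH1wt, Cebpa was lower in IDH1mut (-0.55 ± 0.08, adjusted p = 0.000855) and in R-2HG (-0.32 ± 0.08, adjusted p = 0.00591). These 4 calls held under each of the 21 other settings of the analysis, with adjusted p from 6.34e-05 to 0.0464, including that without R-2HG replicates 1 and 2. IDH1wt differed from empty vector by -0.08 ± 0.08 (adjusted p = 0.645).

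The order of the 2 lowest groups for Cebpa was less firm. IDH1mut lay below R-2HG by -0.22 ± 0.08 (adjusted p = 0.0397), but this call was lost in 10 of 21 other settings. Among them were those without IDH1mut replicate 2 (-0.18, adjusted p = 0.128) or 3 (-0.23, adjusted p = 0.0679), R-2HG replicate 2 (-0.16, adjusted p = 0.169) or empty vector replicate 3 (-0.22, adjusted p = 0.0513), that with replicate numbers as a block (adjusted p = 0.0636) and that without R-2HG replicates 1 and 2 (-0.18, adjusted p = 0.344).

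Myb, whose product sustains progenitor growth, fell in the same 2 groups. Its values were -0.62, -0.30 and -0.09 in IDH1mut, against 0.10, 0.22 and 0.08 in empty vector. In R-2HG they were -0.37, -0.40 and -0.34, and in IDH1wt 0.14, -0.04 and -0.03. The R-2HG arrays were close together while the IDH1mut arrays spread widely, and no array of either group reached those of IDH1wt or empty vector. The change was -0.47 ± 0.11 in IDH1mut against empty vector (adjusted p = 0.011) and -0.50 ± 0.11 in R-2HG against empty vector (adjusted p = 0.00481), which are 0.721 and 0.707 times the level of empty vector. Between IDH1mut and R-2HG the difference was 0.03 ± 0.11 (adjusted p = 0.859). The fall in IDH1mut was called in all 21 other settings (adjusted p up to 0.0473), and that in R-2HG in all except the one without R-2HG replicates 1 and 2 (-0.47, adjusted p = 0.11). All 3 Myb probe sets were called lower on their own in both comparisons, at -0.38, -0.56 and -0.47 in IDH1mut and at -0.50, -0.59 and -0.41 in R-2HG, with adjusted p from 0.00574 to 0.037 in a fit of single probe sets that called 21.9% and 39.5% of all probe sets.

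Against IDH1wt the Myb changes were nearer the threshold. In IDH1mut the change was -0.36 ± 0.11, with an adjusted p of 0.05003 that just missed it, and it passed without IDH1mut replicate 3 (-0.49, adjusted p = 0.0128), with array weights (-0.34, adjusted p = 0.0353) and with an SD filter (adjusted p = 0.0482). In R-2HG against IDH1wt Myb was lower by -0.39 ± 0.11 (adjusted p = 0.0161). That call was lost in 5 of 21 other settings, among them those without IDH1wt replicate 1 (-0.33, adjusted p = 0.0588), without R-2HG replicate 2 (-0.38, adjusted p = 0.0511), after quantile normalization (-0.33, adjusted p = 0.101) and without R-2HG replicates 1 and 2 (-0.36, adjusted p = 0.207).

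Gfi1, the neutrophil-promoting repressor gene, divided the groups in another way. Its single probe set gave -0.57, -0.21 and -0.21 in IDH1mut and -0.34, -0.29 and -0.26 in IDH1wt. In R-2HG it gave 0.26, 0.35 and 0.00, and in empty vector -0.07, 0.24 and 0.26. Both groups with an IDH1 construct lay below both groups with the empty vector, without overlap. Gfi1 fell in IDH1mut against empty vector (-0.48 ± 0.12, adjusted p = 0.0164) and in IDH1mut against R-2HG (-0.54 ± 0.12, adjusted p = 0.00779), and it was higher in R-2HG than in IDH1wt (0.50 ± 0.12, adjusted p = 0.00749). The difference between IDH1wt and empty vector was of similar size, -0.44 ± 0.12, with an adjusted p of 0.106, and passed only with array weights (-0.48, adjusted p = 0.0145). IDH1mut and IDH1wt differed by -0.04 ± 0.12 (adjusted p = 0.886), and R-2HG and empty vector by 0.06 ± 0.12 (adjusted p = 0.721). The fall in IDH1mut against empty vector was lost without IDH1mut replicate 1 (-0.36, adjusted p = 0.0587), without empty vector replicate 2 (-0.43, adjusted p = 0.0651) or without empty vector replicate 3 (-0.42, adjusted p = 0.0697). With only R-2HG replicate 3 kept, Gfi1 stood at -0.33 in IDH1mut against R-2HG (adjusted p = 0.274) and at 0.30 in R-2HG against IDH1wt (adjusted p = 0.275).

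**Figure D2:**
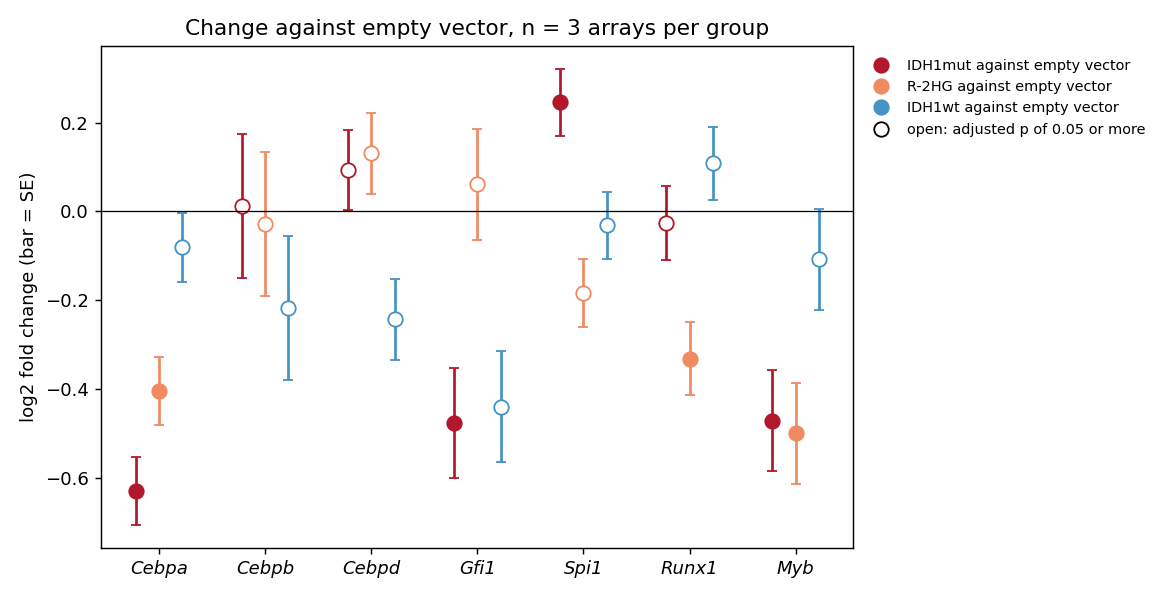
Log2 fold change against empty vector (y axis, bar = SE, n = 3 arrays per group) for the 7 genes in IDH1mut, R-2HG and IDH1wt, filled where the adjusted p is under 0.05. Cebpa and Myb are filled below 0 for IDH1mut and R-2HG, Gfi1 for IDH1mut, Runx1 for R-2HG, Spi1 is filled above 0 for IDH1mut, and no gene is filled for IDH1wt.

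The sequences before the starts of the 3 genes called lower in IDH1mut against empty vector are shown because these genes moved together in that comparison. They are the 250 bases upstream of each start in RefSeq, build GRCm38.p6, read 5′ to 3′ on the gene's strand, with matches to the motifs searched in capitals. For Gfi1, which has 2 listed starts, the upstream one is shown.
Cebpa, chr7:35119043-35119292, plus strand: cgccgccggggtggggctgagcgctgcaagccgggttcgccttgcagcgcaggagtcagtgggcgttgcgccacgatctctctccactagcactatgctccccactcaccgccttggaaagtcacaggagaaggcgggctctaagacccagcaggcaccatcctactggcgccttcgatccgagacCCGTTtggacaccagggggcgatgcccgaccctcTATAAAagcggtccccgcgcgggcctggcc
Myb, chr10:21160985-21161234, minus strand: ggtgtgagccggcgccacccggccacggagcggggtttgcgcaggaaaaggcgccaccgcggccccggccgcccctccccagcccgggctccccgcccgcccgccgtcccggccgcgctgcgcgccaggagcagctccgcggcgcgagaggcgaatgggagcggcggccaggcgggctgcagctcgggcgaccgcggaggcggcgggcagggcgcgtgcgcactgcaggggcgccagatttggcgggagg
Gfi1, chr5:107725806-107726055, minus strand: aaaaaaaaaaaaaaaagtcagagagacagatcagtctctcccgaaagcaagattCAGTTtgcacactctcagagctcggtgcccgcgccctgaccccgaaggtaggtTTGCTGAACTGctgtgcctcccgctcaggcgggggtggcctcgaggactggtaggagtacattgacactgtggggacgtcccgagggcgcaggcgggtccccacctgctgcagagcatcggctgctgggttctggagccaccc
Motifs were searched on both strands and spelled TTGCNNAA for C/EBP, GAGGAA for PU.1, TGTGGT for RUNX, AACNG for MYB and TATAAA for the TATA box. The Cebpa stretch held 1 MYB match, 64 bases before the start, and 1 TATA match that begins 30 bases before it. The Myb stretch held 0 matches to any of them, at a GC content of 81.2% against 66.4% for Cebpa and 59.2% for Gfi1. The Gfi1 stretch held 1 C/EBP match and 2 MYB matches, of which 1 overlaps the C/EBP match. Among 32851 listed promoters, a C/EBP match was held by 9.6% in the same window, a PU.1 match by 23.3%, a RUNX match by 14.0%, a MYB match by 74.2% and a TATA match by 12.4%. A match describes letters in this window only.

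Spi1, which encodes PU.1, was highest in IDH1mut. Its values were 0.43, 0.26 and 0.20 in IDH1mut, against 0.00, 0.05 and 0.10 in empty vector. They were -0.15, -0.21 and -0.04 in R-2HG and -0.01, 0.06 and 0.00 in IDH1wt. All IDH1mut arrays lay above every other array, and all R-2HG arrays below every other array. The largest difference was between IDH1mut and R-2HG, 0.43 ± 0.08 (adjusted p = 0.00251), or 1.35 times, and it was lost only without R-2HG replicates 1 and 2 (0.34, adjusted p = 0.119). Spi1 also rose in IDH1mut against empty vector (0.25 ± 0.08, adjusted p = 0.0361) and against IDH1wt (0.28 ± 0.08, adjusted p = 0.0285). These increases, of 1.19 and 1.21 times, were lost in 10 and 7 of 21 other settings. Against empty vector they included the removal of any 1 array of empty vector (adjusted p = 0.0634 to 0.106), of IDH1mut replicate 1 (0.18, adjusted p = 0.121), of IDH1mut replicate 2 (0.26, adjusted p = 0.0614) and of R-2HG replicate 1 (adjusted p = 0.0512). Against IDH1wt they included the removal of IDH1wt replicate 1 or 3 (adjusted p = 0.0798 and 0.0833) and of IDH1mut replicate 1 or 2 (adjusted p = 0.0941 and 0.0566). With replicate numbers as a block the adjusted p was 0.0631 against empty vector and 0.053 against IDH1wt.

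In R-2HG against empty vector Spi1 was at -0.18 ± 0.08 (adjusted p = 0.0712). It passed with array weights (-0.23, adjusted p = 0.00458). It also passed when R-2HG replicate 3 (-0.23, adjusted p = 0.0393) or IDH1mut replicate 1 (-0.18, adjusted p = 0.0481) was left out. With R-2HG replicate 3 as the only R-2HG array it stood at -0.093 (adjusted p = 0.636).

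Runx1, the gene of a core binding factor subunit, fell in R-2HG. Its values, averaged over 6 probe sets, were -0.31, -0.36 and -0.13 in R-2HG, against 0.07, 0.09 and 0.04 in empty vector. They were -0.09, 0.08 and 0.14 in IDH1mut and 0.25, 0.16 and 0.12 in IDH1wt. All R-2HG arrays were below every other array. The change in R-2HG was -0.33 ± 0.08 against empty vector (adjusted p = 0.00763) and -0.44 ± 0.08 against IDH1wt (adjusted p = 0.00161). IDH1mut differed from empty vector by -0.03 ± 0.08 (adjusted p = 0.856) and was higher than R-2HG by 0.31 ± 0.08 (adjusted p = 0.015). With R-2HG replicate 3 as the only R-2HG array these changes were -0.20 (adjusted p = 0.286), -0.30 (adjusted p = 0.108) and 0.17 (adjusted p = 0.401), in the order R-2HG against empty vector, R-2HG against IDH1wt and IDH1mut against R-2HG. The last call was also lost without IDH1mut replicate 3 (0.26, adjusted p = 0.0525), or with R-2HG replicate 1 (0.28, adjusted p = 0.0561) or 2 (0.26, adjusted p = 0.0669) left out.

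The Runx1 probe sets did not all show this fall. Probe sets 1422864_at, 1422865_at and 1440878_at were each called lower in R-2HG against empty vector, at -0.52 ± 0.16 (adjusted p = 0.023), -0.59 ± 0.16 (adjusted p = 0.0129) and -0.65 ± 0.11 (adjusted p = 0.00103). At 1422864_at the R-2HG arrays stood at -0.37, -0.89 and -0.23, against -0.06, 0.08 and 0.06 in empty vector. At 1440878_at they stood at -0.79, -0.60 and -0.32, against 0.06, 0.16 and 0.00. In these probe sets replicate 3 of R-2HG also lay below every array of the other groups. Probe sets 1427650_a_at, 1452530_a_at and 1452531_at stood at -0.25 (adjusted p = 0.0752), -0.17 (adjusted p = 0.327) and 0.19 (adjusted p = 0.109) in the same comparison, so that 3 of 6 were called. The probe set 1440878_at alone was also lower in IDH1mut than in IDH1wt (-0.42, adjusted p = 0.0272, in a fit that called 14.1% of all probe sets). Which Runx1 transcripts each probe set detects is not given in the sources used here, and the mean over all 6 combines probe sets that differ.

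**Figure D3:**
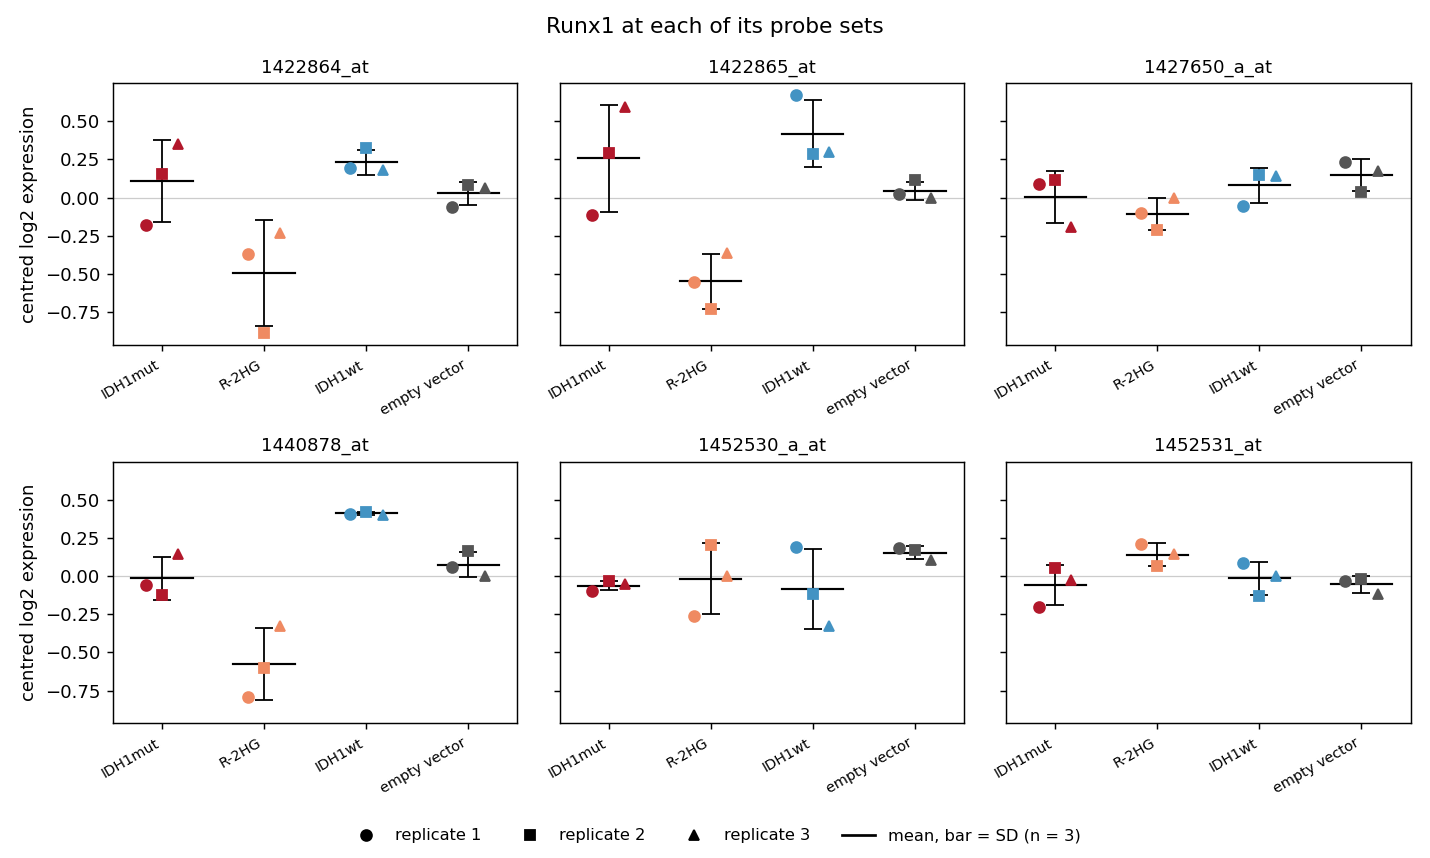
Centred log2 expression (y axis) at each of the 6 Runx1 probe sets, by group and array, with the mean and SD of 3 arrays. The R-2HG arrays lie lowest at 1422864_at, 1422865_at and 1440878_at and do not lie below all other arrays at the other probe sets.

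Cebpd, the gene of a C/EBP induced by cytokines, differed mainly through low values in IDH1wt. It stood at 0.25, 0.32 and -0.04 in IDH1mut and at 0.15, 0.28 and 0.22 in R-2HG. In IDH1wt it stood at -0.19, -0.14 and -0.15, and in empty vector at 0.06, 0.17 and 0.03. All 3 IDH1wt arrays lay below every other array. Cebpd was higher in IDH1mut than in IDH1wt by 0.34 ± 0.09 (adjusted p = 0.0268) and higher in R-2HG than in IDH1wt by 0.37 ± 0.09 (adjusted p = 0.00663). IDH1wt itself differed from empty vector by -0.24 ± 0.09 (adjusted p = 0.21), while IDH1mut and R-2HG stood 0.09 ± 0.09 (adjusted p = 0.513) and 0.13 ± 0.09 (adjusted p = 0.268) above empty vector. The call against IDH1wt was lost in 6 of 21 other settings for IDH1mut. They were the fit of these 2 groups alone (adjusted p = 0.0767) and those without IDH1wt replicate 1, 2 or 3 (adjusted p = 0.0769, 0.054 and 0.0688) or IDH1mut replicate 1 or 2 (0.30, adjusted p = 0.0817, and 0.27, adjusted p = 0.106). For R-2HG it was lost only without R-2HG replicates 1 and 2 (0.38, adjusted p = 0.103). The 2 probe sets differed, with 1423233_at called higher in R-2HG against empty vector (0.33, adjusted p = 0.0143), while 1456605_at stood at -0.07 (adjusted p = 0.697). Against IDH1wt, 1423233_at was called higher in IDH1mut (0.42, adjusted p = 0.00981) and in R-2HG (0.52, adjusted p = 0.00114). At 1456605_at neither change was called (0.25, adjusted p = 0.205, and 0.22, adjusted p = 0.153).

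Cebpb, which encodes a C/EBP of emergency granulocyte formation and macrophages, was the only measured factor gene called in none of the comparisons. It stood at 0.60, 0.04 and -0.13 in IDH1mut and at 0.04, 0.09 and 0.26 in R-2HG. The values were -0.18, 0.14 and -0.13 in IDH1wt and 0.00, 0.25 and 0.23 in empty vector. The IDH1mut arrays spread the most, IDH1mut replicate 1 being the highest of all arrays, and every pair of groups overlapped. The log2 fold changes against empty vector were 0.01 ± 0.16 in IDH1mut (adjusted p = 0.971), -0.03 ± 0.16 in R-2HG (adjusted p = 0.905) and -0.22 ± 0.16 in IDH1wt (adjusted p = 0.545). Its SE of 0.16 was the largest of the 7 genes.

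The genes whose 12 values lay nearest to those of a factor gene, measured as the root mean square difference after centring each gene on its own mean, were listed for the 6 genes called by the F test. For Cebpa they were Poc1a, Cbfa2t3 and Ganab, each at 0.091 on the log2 scale, where the Cebpa values themselves spread by 0.261. For Myb they were Abhd4 (0.084), Kit (0.094) and Gtf2i (0.101), beside a spread of 0.251. Kit, the stem cell factor receptor gene, is thus among the nearest genes to Myb in these 12 arrays. Gfi1 was nearest to Vegfa (0.088), Osbpl7 (0.130) and Rnf112 (0.132), beside 0.281. Spi1 was nearest to Gpsm3 (0.048), Pdlim5 (0.052) and Pdcd10 (0.058), beside 0.167. Runx1 was nearest to Fra10ac1 (0.039), Dnm1l (0.048) and Rbbp7 (0.050), beside 0.180, and Cebpd to Map1lc3a (0.068), Oas1a (0.073) and Pigx (0.077), beside 0.171.

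Genes that these factors are known to regulate were examined next, beginning with the granule genes. Primary granule genes are activated by C/EBP alpha and MYB in promyelocytes. Of 8 measured genes listed under this heading, 5 were lower and 1 higher in IDH1mut against empty vector, with a median of -0.71. In R-2HG against empty vector 5 were lower and 3 higher, with a median of -0.29, and in IDH1mut against IDH1wt 5 were lower and 2 higher, with a median of -0.63. The median of all genes was -0.05, 0.003 and -0.0003 in these 3 comparisons, and 22.6%, 40.8% and 15.7% of all genes were called. The genes called lower in IDH1mut and in R-2HG were Mpo, Elane, Prtn3, Ctsg and Ms4a3. Those higher in R-2HG were Lyz2 (0.30, adjusted p = 0.00318), Lyz1 (0.44, adjusted p = 0.00626) and Hp (0.43, adjusted p = 0.00672), and Lyz2 was also higher in IDH1mut (0.29, adjusted p = 0.00578). Lyz1 and Lyz2, the lysozyme genes, are near-identical copies whose probe sets may share signal, and Hp encodes haptoglobin. Lyz1, Lyz2 and Hp may belong to another stage than the other genes of the list, which was not tested. Their rise is thus not read as one of primary granule genes. Elane, the neutrophil elastase gene, had values of -0.73, -0.66 and -0.87 in IDH1mut, against 0.16, 0.42 and 0.48 in empty vector, and fell by 1.10 ± 0.13 on the log2 scale (adjusted p = 0.000144). In R-2HG Elane stood at 0.05, 0.10 and -0.39, a change of -0.43 ± 0.13 (adjusted p = 0.0196), with replicate 3 the lowest of the R-2HG arrays. Mpo, the myeloperoxidase gene, changed by -0.61 ± 0.08 in IDH1mut (adjusted p = 0.000401) and by -0.25 ± 0.08 in R-2HG (adjusted p = 0.0333), where its values were -0.0043, 0 and -0.32. Without R-2HG replicates 1 and 2 the median of the 8 in R-2HG against empty vector was -0.53, and Lyz1, Lyz2 and Hp did not pass. Without replicate 3 the median was -0.16, and 2 were lower and 3 higher. Ctsg (cathepsin G) and Ms4a3 fell by 0.94 ± 0.09 and 0.95 ± 0.12 in IDH1mut and by 0.62 ± 0.09 and 0.89 ± 0.12 in R-2HG.

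Secondary granule and late neutrophil genes, many of them known targets of C/EBP epsilon, were higher in the same groups. Of 19 measured, 13 were higher and 0 lower in IDH1mut against empty vector, with a median of 0.38, and 13 were higher and 0 lower in R-2HG against empty vector, with a median of 0.37. In IDH1mut against IDH1wt 15 were higher and 0 lower, with a median of 0.47. In IDH1wt against empty vector the median was -0.03. Of all genes, 10.5% were higher in IDH1mut and 16.5% in R-2HG, both against empty vector, and 8.37% in IDH1mut against IDH1wt. Mmp8, the neutrophil collagenase gene, rose by 2.15 ± 0.17 in IDH1mut and by 1.22 ± 0.17 in R-2HG. Padi4 rose by 0.89 ± 0.10 and 1.07 ± 0.10, and Ltf, the lactoferrin gene, by 0.70 ± 0.08 and 0.63 ± 0.08. Camp, the cathelicidin gene, stood at 0.08 ± 0.06 in IDH1mut and 0.04 ± 0.06 in R-2HG and was not called in either. When R-2HG replicates 1 and 2 were left out, the median in R-2HG against empty vector was 0.20, beside -0.01 over all genes. This setting was used for all lists and was chosen after seeing the data. Fewer genes passed in it, in this list and over all genes. In R-2HG against empty vector 2619 of all genes were higher and 3852 lower with all arrays, beside 2982 and 4036 without replicate 3. The lists did not all move with these counts. Without replicate 3 the secondary granule count stayed at 13 higher, and 2 primary granule genes were lower, beside 5 with all arrays.

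Cytokine receptor and surface genes, many of them known targets of PU.1 and C/EBP proteins, moved in both directions. Of 13 measured, 5 were higher and 3 lower in IDH1mut against empty vector and 4 were higher and 5 lower in R-2HG against empty vector. The median in R-2HG against empty vector was -0.22, and 0.15 without R-2HG replicates 1 and 2. With all arrays, 22.6% of all genes were called in IDH1mut against empty vector and 40.8% in R-2HG against empty vector. Csf3r, the G-CSF receptor gene of neutrophils, had values of 0.57, 0.28 and 0.33 in IDH1mut and 0.27, 0.29 and 0.56 in R-2HG, against -0.24, -0.54 and -0.42 in empty vector. It rose by 0.80 ± 0.11 in IDH1mut (adjusted p = 0.000489) and by 0.77 ± 0.11 in R-2HG (adjusted p = 0.000393). Itgam (CD11b) rose by 0.48 ± 0.08 and 0.67 ± 0.08. Cd14, a monocyte receptor gene, fell by 1.43 ± 0.18 in IDH1mut and by 1.23 ± 0.18 in R-2HG, and Il3ra, the interleukin 3 receptor alpha chain gene, by 0.84 ± 0.12 and 1.02 ± 0.12. Kit fell by 0.43 ± 0.11 (adjusted p = 0.0138) and 0.51 ± 0.11 (adjusted p = 0.00303). Csf1r, the M-CSF receptor gene, did not pass against empty vector (-0.23 and -0.18, adjusted p = 0.127 and 0.164) but was lower in IDH1mut than in IDH1wt (-0.47 ± 0.10, adjusted p = 0.00855).

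**Figure D4:**
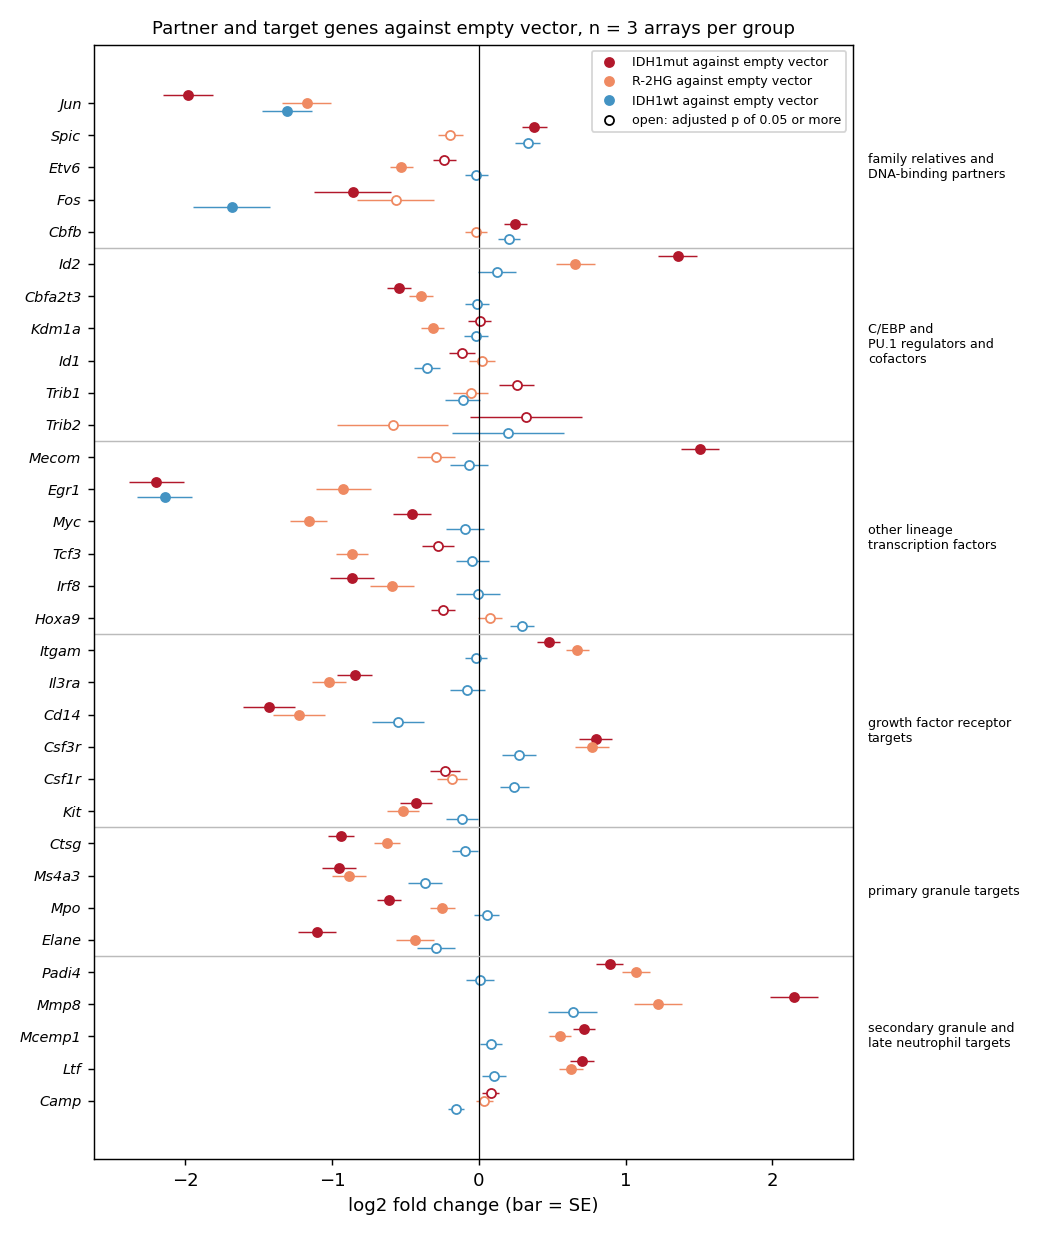
Log2 fold change against empty vector (x axis, bar = SE, n = 3 arrays per group) for partner, lineage factor and target genes of 6 lists, in IDH1mut, R-2HG and IDH1wt, filled where the adjusted p is under 0.05. The 4 drawn primary granule genes, Ctsg, Ms4a3, Mpo and Elane, lie below 0 and Padi4, Mmp8, Mcemp1 and Ltf above 0 in IDH1mut and R-2HG.

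Relatives and partners of the factors were measured for 15 genes. In IDH1mut against empty vector 5 were higher and 3 lower (median -0.08), where 22.6% of all genes were called. In R-2HG against empty vector 1 was higher and 3 lower (median -0.20), where 40.8% of all genes were called. Without R-2HG replicates 1 and 2 the R-2HG median was -0.12, and without replicate 3 it was -0.26, with 1 higher and 6 lower. Cbfb, the partner subunit of RUNX1, was higher in IDH1mut (0.25 ± 0.08, adjusted p = 0.0353) and at -0.02 ± 0.08 in R-2HG (adjusted p = 0.862). Etv6, an ETS family repressor gene, fell in R-2HG (-0.53 ± 0.08, adjusted p = 0.00043) and stood at -0.23 ± 0.08 in IDH1mut (adjusted p = 0.0526). Spic, a close relative of Spi1, rose in IDH1mut against empty vector with values of 0.36, 0.43 and 0.24, against -0.02, -0.04 and -0.06 in empty vector (0.38 ± 0.08, adjusted p = 0.0065). It stood at 0.33 ± 0.08 in IDH1wt against empty vector (adjusted p = 0.0783), and IDH1mut and IDH1wt differed by 0.05 ± 0.08 (adjusted p = 0.763). Jun and Fos, whose products can pair with C/EBP proteins, stood at -1.98 ± 0.17 and -0.86 ± 0.26 in IDH1mut and at -1.31 ± 0.17 and -1.68 ± 0.26 in IDH1wt, all against empty vector and all past the threshold. In R-2HG against empty vector Jun fell too (-1.17 ± 0.17, adjusted p = 0.000359), and Fos was at -0.57 ± 0.26 (adjusted p = 0.104).

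Of 16 measured regulators and cofactors of C/EBP and PU.1, 1 was higher and 1 lower in IDH1mut against empty vector, where 22.6% of all genes were called. In R-2HG against empty vector 2 were higher and 3 lower, where 40.8% of all genes were called. The R-2HG counts were 3 and 6 without replicate 3, where 2982 of all genes were higher and 4036 lower. With replicate 3 as the only R-2HG array fewer of all genes passed. The median of the list in R-2HG was then 0.11, beside -0.12 with all arrays. Id2, Cbfa2t3 and Kdm1a, described next, did not pass in R-2HG in that setting, at 0.59, -0.25 and -0.16. Id2, the gene of a helix-loop-helix inhibitor, had values of 0.96, 0.99 and 0.96 in IDH1mut and 0.35, 0.27 and 0.21 in R-2HG, against -0.61, -0.25 and -0.29 in empty vector. It rose by 1.35 ± 0.13 in IDH1mut (adjusted p = 4.97e-05) and by 0.66 ± 0.13 in R-2HG (adjusted p = 0.00227). Cbfa2t3, a corepressor gene of the family that is fused to RUNX1 in leukaemia, fell by 0.54 ± 0.08 and 0.39 ± 0.08. Kdm1a, the histone demethylase gene whose product works with GFI1, fell with R-2HG (-0.31 ± 0.08, adjusted p = 0.00893), with IDH1mut at 0.01 ± 0.08. Trib1 and Trib2, whose products promote the breakdown of C/EBP alpha protein, passed in none of the 6 comparisons, and Trib2 spread from -1.18 and -1.19 in R-2HG replicates 1 and 2 to -0.05 in replicate 3.

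Among 26 other lineage factors, 2 were higher and 6 lower in IDH1mut against empty vector (median -0.13). In R-2HG against empty vector 1 was higher and 9 lower (median -0.22). Over all genes 10.5% were higher and 12.1% lower in the first comparison, and 16.5% and 24.3% in the second. In either direction 40.8% of all genes were called in R-2HG, close to the share of this list. Without R-2HG replicates 1 and 2 the median in R-2HG was -0.05, and without replicate 3 the counts in R-2HG were 1 and 14. In both settings those in IDH1mut, which share the estimate of spread, were 4 and 10. Irf8, the gene of a monocyte and dendritic cell factor, fell by 0.86 ± 0.15 in IDH1mut (adjusted p = 0.00165) and by 0.59 ± 0.15 in R-2HG (adjusted p = 0.00854). Myc fell more in R-2HG (-1.16 ± 0.13) than in IDH1mut (-0.45 ± 0.13), and the 2 groups differed (0.70 ± 0.13 for IDH1mut against R-2HG, adjusted p = 0.00267). Tcf3, an E protein gene, fell with R-2HG (-0.86 ± 0.11, adjusted p = 0.000182), while its change in IDH1mut was -0.28 ± 0.11 (adjusted p = 0.0916). Egr1 was lower in all 3 groups, at -2.20 ± 0.19 in IDH1mut, -0.92 ± 0.19 in R-2HG and -2.14 ± 0.19 in IDH1wt. Mecom rose in IDH1mut (1.51 ± 0.13), and its change in R-2HG was -0.29 ± 0.13 (adjusted p = 0.0934). Whether the Hoxa9 probe sets also detect the introduced HoxA9 is not given in the sources used here. They gave -0.24 ± 0.08 in IDH1mut against empty vector (adjusted p = 0.0515) and 0.07 ± 0.08 in R-2HG against empty vector (adjusted p = 0.495). IDH1mut stood below IDH1wt by a log2 difference of -0.54 ± 0.08 (adjusted p = 0.00135). It also stood below R-2HG, at -0.32 ± 0.08 (adjusted p = 0.0126). R-2HG stood below IDH1wt, at -0.22 ± 0.08 (adjusted p = 0.0444), while IDH1wt against empty vector was at 0.30 ± 0.08 (adjusted p = 0.102).

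A subset of the list genes was followed singly, the 4 with the smallest F test p in each list and a short fixed set. Of this subset 22 genes passed in R-2HG against empty vector with all arrays. Prtn3, Lyz1, Lyz2 and Hp also passed with all arrays but are outside this subset, so the 22 do not include them. All 22 kept their direction with replicate 3 as the only R-2HG array. Not all of them still passed in that setting. Id2 (0.59), Cbfa2t3 (-0.25), Kdm1a (-0.16), Egr1 (-0.68) and Irf8 (-0.43) lost their calls there. Elane and Mpo stood lower than with all arrays, at -0.74 and -0.46. The single changes of Prtn3, Lyz1, Lyz2 and Hp in that setting are not given here.

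Markers of cell types and maturation stages were summarised by their median per array. That of the 5 primary granule markers, the same 5 genes called lower above, ran from -0.66 to -0.59 in IDH1mut. It ran from -0.39 to 0 in R-2HG, against 0.16 to 0.32 in empty vector. Lyz1, Lyz2 and Hp, which were higher in R-2HG, are not among these markers, so this median adds nothing to the calls above. That of 10 neutrophil markers ran from 0.21 to 0.27 in IDH1mut and from 0.13 to 0.23 in R-2HG, against -0.27 to -0.10 in empty vector. These markers include Ltf, Camp, Mmp8 and Padi4, given above, so this median is not a separate result. For 12 monocyte and dendritic cell markers the median ran from -0.30 to -0.04 in IDH1mut and from -0.13 to 0.08 in R-2HG, against 0.06 to 0.19 in empty vector. Irf8, Csf1r and Cd14, also given above, are among them. For 9 erythroid markers the median ran from 0.12 to 0.39 in IDH1mut, against -0.80 to -0.62 in empty vector. In IDH1wt it ran from -0.95 to 0.28, overlapping IDH1mut. In R-2HG it was -1.81 and -1.85 in replicates 1 and 2 and 0 in replicate 3. For 10 mast cell, basophil and eosinophil markers it ran from -0.63 to -0.07 in IDH1mut, against 0.05 to 0.12 in empty vector. The 8 T and NK cell markers ran from 0.10 to 0.43 in IDH1mut and from -0.04 to 0.11 in R-2HG, against -0.02 to 0.06 in empty vector. The ranges of IDH1mut and empty vector overlapped for 10 B cell markers (0.43 to 1.39 in IDH1mut and -0.57 to -0.20 in R-2HG, against 0 to 0.99 in empty vector) and for 6 megakaryocyte markers (-0.08 to 0.07 in IDH1mut and -0.22 to 0.08 in R-2HG, against -0.55 to 0.12 in empty vector).

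In IDH1mut against empty vector, where 10.5% of all genes were higher and 12.1% lower, 2 of 9 erythroid, 3 of 10 B cell and 3 of 8 T and NK cell markers were called higher and 0 lower. Of the 12 monocyte and dendritic cell markers 1 was higher and 5 lower. In IDH1mut against IDH1wt 8.37% of all genes were higher. There 0 of the erythroid, 3 of the B cell and 3 of the T and NK cell markers were higher. In R-2HG against empty vector, where 16.5% of all genes were higher and 24.3% lower, 5 of 10 mast cell, basophil and eosinophil markers were lower and 1 higher, and 4 of 10 B cell markers were lower. With replicate 3 as the only R-2HG array those counts were smaller, as were those over all genes. The part of these markers in the changes of the factor genes was not tested.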

How the data were processed

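The arrays carried total RNA of sorted GFP-positive marrow cells. The table deposited by the authors holds values for 32533 probe sets that were taken as log2, the scale RMA gives. RMA is the tool named, without a version, per the submitters' processing notes. The values run from -6.48 to 4.93, every array has a median of 0 and 83.6% of probe sets hold an exact 0, so they were read as centred per probe set. The reference of the centring is not given in the sources used here, and no batch or scan date was given. The number of arrays limits the precision.

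Symbols were taken from the platform's annotation. Among the probe sets, 28805 had 1 symbol, 757 several and 2971 none, and the first kind was averaged into 15858 genes. Limma 3.58.1 in R 4.3.3 fitted 1 coefficient per group over all 12 arrays (8 residual and 3.96 prior degrees of freedom), with two-sided p-values adjusted by Benjamini and Hochberg's method across the 15858 genes and called under 0.05. Single probe sets were fitted separately. The fit was tested on simulated data. The factor genes and the 6 lists were chosen with earlier results of these data known. All factor genes are reported, and of each list the 4 genes with the smallest F test p and a short fixed set. Promoters were taken from RefSeq (GRCm38.p6), where Cebpa, Cebpb, Gfi1, Runx1 and Myb had 1 or 2 entries.

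The results were recomputed after a second quantile normalization, with each gene's highest-SD probe set, with the median of probe sets, with every probe set called in one direction, an SD filter at the 30th percentile and eBayes with trend and robust settings. Also run were array weights, a replicate block, fits of 2 groups, each array left out in turn, and R-2HG without replicates 1 and 2.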

Additional observations from a re-analysis of the deposited data

How the results depend on the processing

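Of 882 values of single factor genes under 21 alternatives, 798 kept direction and side of the threshold, 53 lost a call, 9 gained one and 22 changed sign, none of these past the threshold in either analysis. Where no cause is named it was not tested. The number of factor genes called by the F test, 6 of 7, ran from 5 to 6 with single arrays left out and was 4 without R-2HG replicates 1 and 2 and 4 when every probe set had to be called in one direction. With single arrays left out the counts ran from 2 to 4 for IDH1mut against empty vector, 3 to 4 for R-2HG against empty vector, 1 to 4 for IDH1mut against IDH1wt, 2 to 4 for IDH1mut against R-2HG and 4 to 5 for R-2HG against IDH1wt, and stayed at 0 for IDH1wt against empty vector. The count of 2 in IDH1mut against empty vector came without empty vector replicate 2 or 3 or IDH1mut replicate 1. That of 1 in IDH1mut against IDH1wt came without IDH1wt replicate 1 or 3 or IDH1mut replicate 1 or 2, and that of 2 in IDH1mut against R-2HG without IDH1mut replicate 3 or R-2HG replicate 2. Without R-2HG replicates 1 and 2 the counts were 1 for R-2HG against empty vector, 0 for IDH1mut against R-2HG and 1 for R-2HG against IDH1wt, with 1 R-2HG array left. When every probe set had to be called in one direction, 2 genes were called for IDH1mut against R-2HG and 2 for R-2HG against IDH1wt. In fits of 2 groups alone 1 was called for IDH1mut against IDH1wt and 2 for IDH1mut against R-2HG, with fewer arrays to estimate the spread. Array weights gave 1 call, Gfi1, for IDH1wt against empty vector. The replicate block gave 3 calls for IDH1mut against empty vector, 2 for IDH1mut against IDH1wt and 3 for IDH1mut against R-2HG, losing Spi1 in the first 2 and Cebpa in the third, and changed no other call. Replicate numbers did not pair the arrays: the deviations of same-numbered arrays from their group means correlated across genes at -0.15 to 0.12, with 1 of 18 pairs over 0.1.

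The sign changes concerned differences near 0. Gfi1 in IDH1mut against IDH1wt stood at -0.0975 to 0.0834 with single arrays left out. Cebpb in IDH1mut against R-2HG stood at -0.0866 without R-2HG replicates 1 and 2 and -0.176 to 0.188 with single arrays left out. Cebpd in IDH1mut against R-2HG stood at 0.0145 with array weights and -0.109 to 0.0713 with single arrays left out. Myb in IDH1mut against R-2HG stood at -0.107 after quantile normalization, -0.00348 without R-2HG replicates 1 and 2 and -0.0954 to 0.171 with single arrays left out. Cebpb in IDH1mut against empty vector stood at -0.101 with the highest-SD probe set, -0.0537 with array weights and -0.204 to 0.16 with single arrays left out. Runx1 in IDH1mut against empty vector stood at 0.213 with the highest-SD probe set and -0.0742 to 0.0402 with single arrays left out. Cebpb in R-2HG against empty vector stood at 0.098 without R-2HG replicates 1 and 2 and -0.106 to 0.0158 with single arrays left out. Gfi1 in R-2HG against empty vector stood at -0.143 without R-2HG replicates 1 and 2 and -0.0465 to 0.163 with single arrays left out.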
